A study of Hippophae rhamnoides with 3 samples.

Results

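The genes described here are 8 seabuckthorn (Hippophae rhamnoides) genes whose best hits in other plants are enzymes or proteins of carotenoid and xanthophyll metabolism. They were chosen by name, as 8 Unigene identifiers, out of 7713 genes that appear in at least 1 of the 3 deposited lists of differentially expressed genes. Leaves came from plantlets 30 days old that had been kept for 6 hr at -10°C (freeze stress, FS), at 4°C (cold stress, CS) or at 28°C (control, CON), all raised in a growth chamber at 28°C with long days. There was 1 DeepSAGE library per condition, the number of plantlets behind a library is not given in the sources used here, and the cultivar or genotype is not given either. DeepSAGE counts short tags that start at a CATG site of the cDNA, where the enzyme NlaIII cuts, and that hold the 17 bases after it. A transcript should give 1 tag whatever its length, so its level can be set side by side between genes as TPM, here the tags per 1000000 clean tags of the library.

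Carotenoids are plastid pigments built from geranylgeranyl diphosphate. Phytoene synthase makes phytoene, desaturases turn it into lycopene, and lycopene cyclases close the rings that lead either to lutein, on the epsilon branch, or to zeaxanthin, on the beta branch. In leaves the xanthophylls sit in the light-harvesting antennae, zeaxanthin helps to shed excess light energy as heat, zeaxanthin epoxidase turns it back to violaxanthin, and abscisic acid is made from the products of that epoxidation.

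The libraries held 11908569 clean tags in FS, 12010060 in CS and 11566379 in CON, as implied by the deposited counts and TPM. A count of 0 allows a level of up to 0.252 TPM in FS, 0.250 in CS and 0.259 in CON (3 tags). The authors dropped tags with fewer than 2 copies, so a 0 can also stand for a single copy. These limits, and every bound given below for a count of 0, do not allow for this and are too tight to that extent. With 1 library per condition no difference below has a replicate check. Each log2 ratio is given with an exact 95% interval (Clopper-Pearson). Tags were amplified by PCR and carried no molecular identifier, so copies of 1 molecule cannot be told from separate molecules, and the intervals and limits cover counting error alone. The lists held 5 genes with light-harvesting or chlorophyll a/b proteins as best hit, the most abundant with 1926 TPM in CON, and 3 with ribulose bisphosphate carboxylase, so leaf genes were present. In such bulk tissue, fewer cells of a kind and less RNA per cell cannot be told apart.

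The best hits differed in strength. The E-value was 0 for phytoene synthase (Unigene22752_All, hit in Fragaria x ananassa) and for phytoene dehydrogenase (Unigene7973_All, hit in Ricinus communis). It was 1.69e-47 for the chromoplast-specific carotenoid-associated protein (Unigene36433_All), 5.42e-37 and 2.13e-30 for the zeaxanthin epoxidase genes Unigene2750_All and Unigene28299_All, and 3.35e-20 for lycopene epsilon cyclase (Unigene5692_All). Zeta-carotene desaturase (Unigene51440_All, 5.49e-07) and carotenoid cleavage dioxygenase (Unigene5320_All, 5.53e-07) rest on weak hits, and their names are the least sure of the 8. No genome was used here, so positions of the genes are not given. The paper names genes of other species, among them Arabidopsis thaliana, Populus trichocarpa and Vitis vinifera, as the reference for mapping. It does not say how these relate to the Unigene identifiers. A count was given in all 3 libraries for 6 of the genes. For the second zeaxanthin epoxidase gene (Unigene28299_All) and for the carotenoid-associated protein the lists give FS and CON counts only.

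The counts of these genes rest on few tag sequences, and 7 of the 8 genes have a tag in the deposited tag tables. The 12 tags are shown because the results turn on which CATG site and which strand was counted. Capitals mark the CATG site, and sites are numbered from the 3′ end of the sense transcript.
Phytoene synthase, sense, site 1: CATGagtaatgtacccaagta
Phytoene synthase, sense, site 2: CATGtctttgaagggttgtat
Phytoene synthase, sense, site 4: CATGaaactcctccacttgtc
Phytoene synthase, antisense, site 3: CATGaggatggacttgaaaaa
Phytoene synthase, antisense, site 4: CATGaagggccaaataaagag
Phytoene dehydrogenase, sense, site 1: CATGgtcccaggagaagtcct
Phytoene dehydrogenase, sense, site 2: CATGgttcatggtcccaggag
Zeta-carotene desaturase, sense, site 1: CATGttcatatgttcattatg
Lycopene epsilon cyclase, sense, site 1: CATGtcagatattacataata
Zeaxanthin epoxidase Unigene2750_All, sense, site 1: CATGtggtacaaattgcacga
Carotenoid cleavage dioxygenase, sense, site 1: CATGgaatccatacggaactc
Carotenoid-associated protein, sense, site 1: CATGggaattggtttagatga

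Each of the 12 tags matched its gene alone and without a mismatch, and 0 of the 30829 tags in the 3 tag tables differed from one of them at a single base. Of the 10 sense tags, 7 start at site 1, the CATG nearest the poly(A) tail, a share of 70.0%. Among all listed sense tags matching 1 gene, 73.8% start there in the table of CS vs CON, 71.4% in that of FS vs CON and 72.5% in that of FS vs CS. The tags of zeta-carotene desaturase and lycopene epsilon cyclase are poor in G and C, with 4 and 3 of 17 bases after the CATG, against a median of 6.00 over all tags. Over all genes with a listed sense tag, the sum of these tags was at most the gene count in 100% of 5192 genes in FS, 5171 in CS and 5191 in CON, so no gene count fell short of its listed sense tags.

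In CS vs CON, 4 of the 6 genes with counts in both libraries differed by a log2 ratio of 1 or more in either direction, 2 higher and 2 lower in CS. Zeaxanthin epoxidase and zeta-carotene desaturase were higher in CS, and lycopene epsilon cyclase and phytoene synthase were lower. Phytoene dehydrogenase and the cleavage dioxygenase stayed within that fold. Of all 5129 genes with counts in both libraries, 77.6% passed it (41.2% higher and 36.4% lower). That balance turned with the scaling, from 2112 genes higher and 1868 lower with clean tags to 1722 higher and 1948 lower with TMM factors, and 1878 higher and 1916 lower with the summed genes, while the 6 genes kept 2 higher and 2 lower with TMM factors. In FS vs CON, 5 of the 8 genes passed, 4 higher and 1 lower in FS, against 78.8% of 5258 genes (44.6% higher and 34.2% lower). With TMM factors 1885 genes were higher and 1874 lower in FS. In FS vs CS, 5 of 6 passed, 3 higher and 2 lower in FS, against 77.9% of 5196 genes (43.1% higher and 34.8% lower). The lists themselves hold 4 of the 8 genes for CS vs CON (50.2% of the 7713 genes), 5 for FS vs CON (52.5%) and 5 for FS vs CS (51.8%). A gene is in these backgrounds only if it passed the authors' threshold in some comparison, and the same holds for the 8 genes. The second zeaxanthin epoxidase gene and the carotenoid-associated protein have FS and CON counts only because the FS vs CON list holds them. They could enter FS vs CON only by passing it, as could part of the 5258 genes. The 5 of 8 and the FS vs CON median therefore cannot be read beside the 6-gene comparisons as a trend. The members' median log2 ratio was 0.17 in CS vs CON, 0.98 in FS vs CON and 0.57 in FS vs CS, against 0.08, 0.35 and 0.21 over all genes in the same order of comparisons. The FS vs CON and CS vs CON ratios share the CON library, and FS vs CS uses the same FS and CS libraries again, so the 3 ratios of a gene are not independent.

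**Figure D1:**
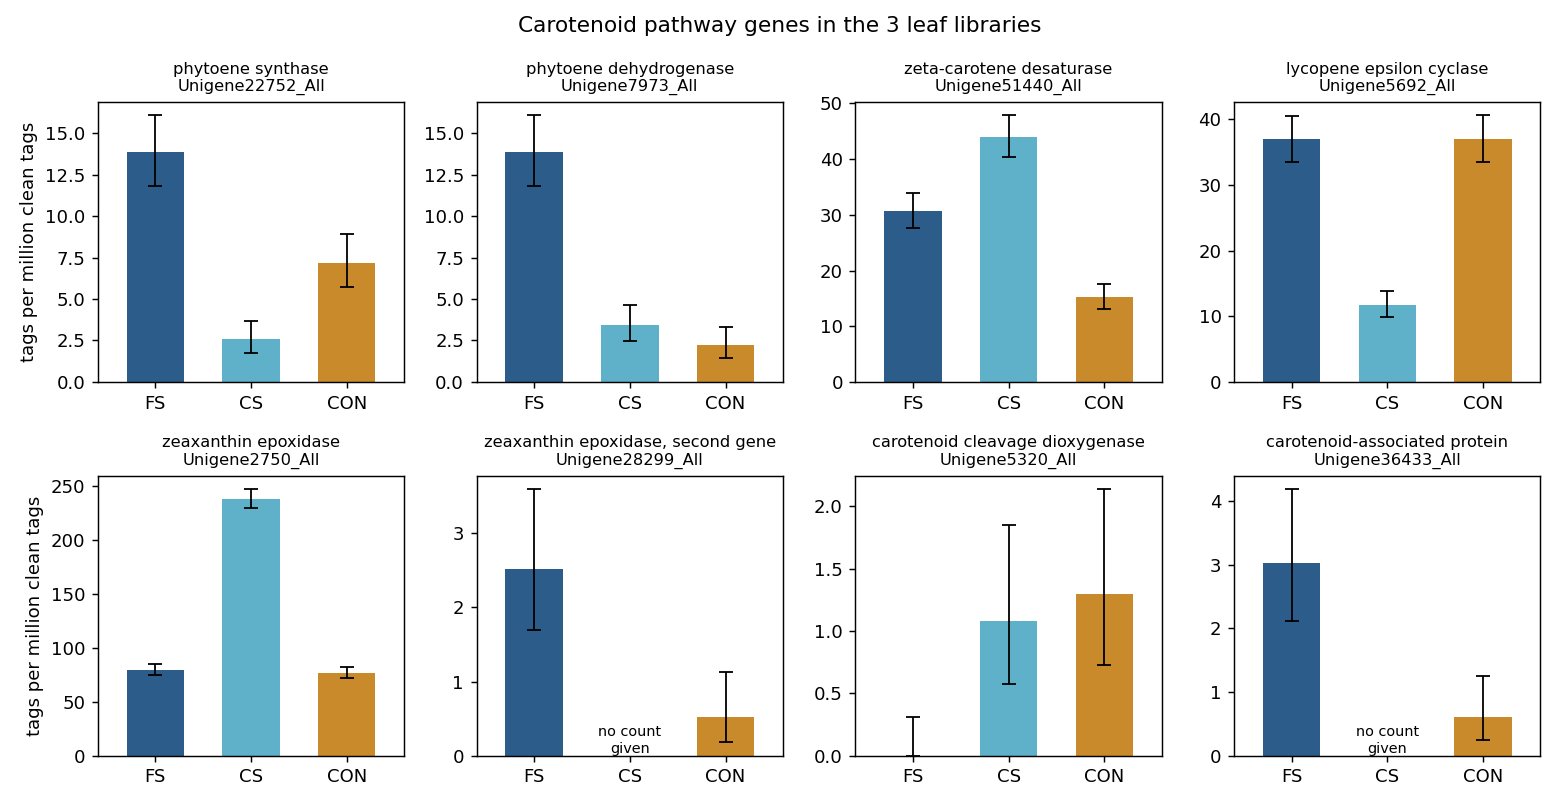
TPM (vertical axis, from 0, its own scale in each panel) of the 8 genes in the FS, CS and CON libraries, 1 library each. Bars give the measured level and error bars the exact 95% Poisson interval of the count, and the plot shows zeaxanthin epoxidase highest in CS at 238 TPM and lycopene epsilon cyclase lowest in CS at 11.7.

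Phytoene synthase, the first enzyme committed to carotenoids and often the step that limits their synthesis, had 165 tags in FS, 31 in CS and 83 in CON. This is 13.9, 2.58 and 7.18 TPM, with Poisson intervals of 11.8 to 16.1, 1.75 to 3.66 and 5.72 to 8.90, so FS was highest and CS lowest and no 2 of the intervals overlapped. FS exceeded CS 5.37-fold, a log2 ratio of 2.42 (1.86 to 3.03). The log2 ratio was -1.48 (-2.12 to -0.86) in CS vs CON. In FS vs CON it was 0.95 (0.56 to 1.35), just short of a log2 ratio of 1, and the gene is not in that deposited list.

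All 3 sense tags of phytoene synthase were lower in CS than in FS. At site 1 there were 49 tags in FS, 7 in CS and 15 in CON. At site 4 there were 75 tags in FS, 18 in CS and 54 in CON. The site 2 tag had 41 tags in FS and 6 in CS, and its CON count is in no table. These 3 tags add up to the whole gene count in FS and in CS, and in CON the site 1 and site 4 tags leave 14 of the 83 tags. The FS vs CS log2 ratios were 2.82 (1.67 to 4.21) at site 1, 2.78 (1.54 to 4.31) at site 2 and 2.07 (1.31 to 2.90) at site 4. In FS vs CON the log2 ratio was 1.67 (0.81 to 2.61) at site 1 and 0.43 (-0.09 to 0.96) at site 4, with intervals that overlap. In CS vs CON it was -1.15 (-2.69 to 0.23) at site 1 and -1.64 (-2.50 to -0.85) at site 4.

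The antisense tag at site 4 of phytoene synthase was more abundant than all its sense tags together. It had 948 tags in CS and 1910 in CON, or 78.9 and 165 TPM, a log2 ratio of -1.06 (-1.18 to -0.95). The gene counts do not include them. There were 30.6 such tags for each sense tag of the gene in CS and 23.0 in CON. Sense and antisense are as deposited, and the orientation of the Unigene sequences was not checked. Antisense tags also outnumbered sense tags in many other genes of the lists, counted only where an antisense tag was itself listed. Among genes of the CS vs CON list with a listed antisense tag and sense tags, antisense exceeded sense in 436 of 803 genes (54.3%) in CS and in 399 of 776 genes (51.4%) in CON. A ratio at least as high as that of phytoene synthase, the gene itself included, was found in 32 of these genes in CS and 55 in CON. For genes of the FS vs CON list taken in the same way, antisense exceeded sense in 51.3% in FS and 48.0% in CON. For those of the FS vs CS list it did so in 45.0% in FS and 46.6% in CS. The site 4 antisense tag was listed for neither FS vs CON nor FS vs CS. A level within 2-fold of both other libraries lies between 82.6 and 158 TPM. Of tags left off a list although both counts were known and at least 100, none of 1763 in FS vs CON and none of 1507 in FS vs CS reached a log2 ratio of 1 in size. A second antisense tag, at site 3, had 32 tags in FS and 0 in CS, which is at least 10.8-fold higher in FS against the limit of 3 tags if the 32 are taken as exact, and a log2 ratio of 3.05 or more with counting error in both libraries. Its CON count is not given.

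Phytoene dehydrogenase, a name used for desaturases that act on phytoene, had 165 tags in FS, 41 in CS and 26 in CON. The levels were 13.9 TPM (11.8 to 16.1) in FS, 3.41 (2.45 to 4.63) in CS and 2.25 (1.47 to 3.29) in CON. FS stood apart from both other libraries, while the intervals of CS and CON overlapped. The log2 ratio was 2.62 (2.02 to 3.28) in FS vs CON, 2.02 (1.52 to 2.55) in FS vs CS and 0.60 (-0.14 to 1.37) in CS vs CON. Phytoene synthase and phytoene dehydrogenase thus had the same count in FS, and they differed in CON, where phytoene synthase was the more abundant.

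Both phytoene dehydrogenase tags come from neighbouring CATG sites 7 bases apart, and the last 14 bases of the site 2 tag are the first 14 of the site 1 tag. The site 1 tag had 148 tags in FS, 41 in CS and 26 in CON. The site 2 tag had 17 tags in FS and 0 in both CS and CON, at least 5.71-fold higher in FS than in CS and at least 5.50-fold higher than in CON if the 17 tags are taken as exact. With counting error in both libraries, the log2 ratio was 2.06 or more in FS vs CS and 2.00 or more in FS vs CON. Site 2 gave 10.3% of the gene's tags in FS (exact 95% interval 6.12 to 16.0). It gave 0 of 41 tags in CS and 0 of 26 in CON, which allows shares of up to 7.32% and 11.5%. Both limits lie within the FS interval. The FS vs CON log2 ratio of the site 1 tag alone was 2.47 (1.86 to 3.13).

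**Figure D2:**
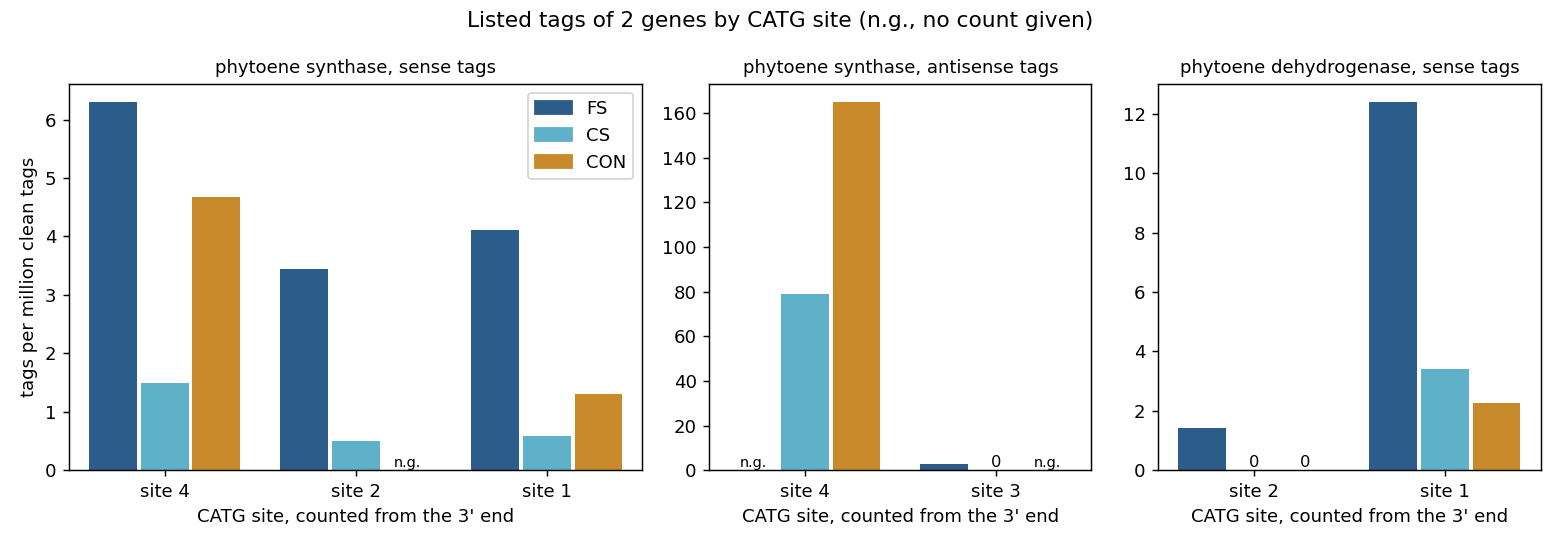
TPM (vertical axis, from 0, a scale for each panel) of the listed tags of phytoene synthase and phytoene dehydrogenase in the FS, CS and CON libraries, by CATG site counted from the 3′ end. The antisense tag at site 4 of phytoene synthase reaches 165 TPM in CON, against 6.30 for its highest sense tag, in FS; 0 marks a count of 0 and n.g. a count that no table gives.

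Zeta-carotene desaturase, which takes part in the steps that end in lycopene, had 366 tags in FS, 528 in CS and 176 in CON, or 30.7, 44.0 and 15.2 TPM. The order was CS, FS and CON, and the Poisson intervals (27.7 to 34.0 in FS, 40.3 to 47.9 in CS and 13.1 to 17.6 in CON) did not overlap. The log2 ratio was 1.53 (1.28 to 1.79) in CS vs CON, 1.01 (0.75 to 1.28) in FS vs CON and -0.52 (-0.71 to -0.32) in FS vs CS. The FS vs CON value is the one nearest to a log2 ratio of 1 from above, and it was 0.69 with scaling by TMM factors and 0.97 with scaling by the summed counts of genes known in all libraries. The single sense tag gave all of the gene's tags in CS and CON and 364 of 366 in FS. Phytoene synthase and zeta-carotene desaturase act in the same stretch of the pathway, and their CS vs CON ratios had opposite signs.

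Lycopene epsilon cyclase, which closes the epsilon ring of the lutein branch, was low in CS alone. It had 439 tags in FS, 140 in CS and 427 in CON, or 36.9 (33.5 to 40.5), 11.7 (9.81 to 13.8) and 36.9 (33.5 to 40.6) TPM. CS lay 3.16-fold below FS, a log2 ratio of 1.66 (1.38 to 1.95) in FS vs CS, and -1.66 (-1.95 to -1.38) in CS vs CON. FS and CON differed by a log2 ratio of -0.002 (-0.20 to 0.19), so a difference of 1.5-fold between these libraries lies outside the counting interval. Within the gene, the site 1 tag and the rest of the gene count had FS vs CON ratios whose intervals did not overlap. The sequences and CATG sites of that rest are not given. The authors allowed 1 mismatch in mapping, so which tags the rest holds is not known. The site 1 tag had 385 tags in FS, 110 in CS and 332 in CON, a log2 ratio of 0.17 (-0.04 to 0.39) in FS vs CON. The tags outside it numbered 54 in FS, 30 in CS and 95 in CON, with a log2 ratio of -0.86 (-1.37 to -0.36) in FS vs CON and -1.72 (-2.36 to -1.11) in CS vs CON. They made up 12.3% of the gene's tags in FS, 21.4% in CS and 22.2% in CON.

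**Figure D3:**
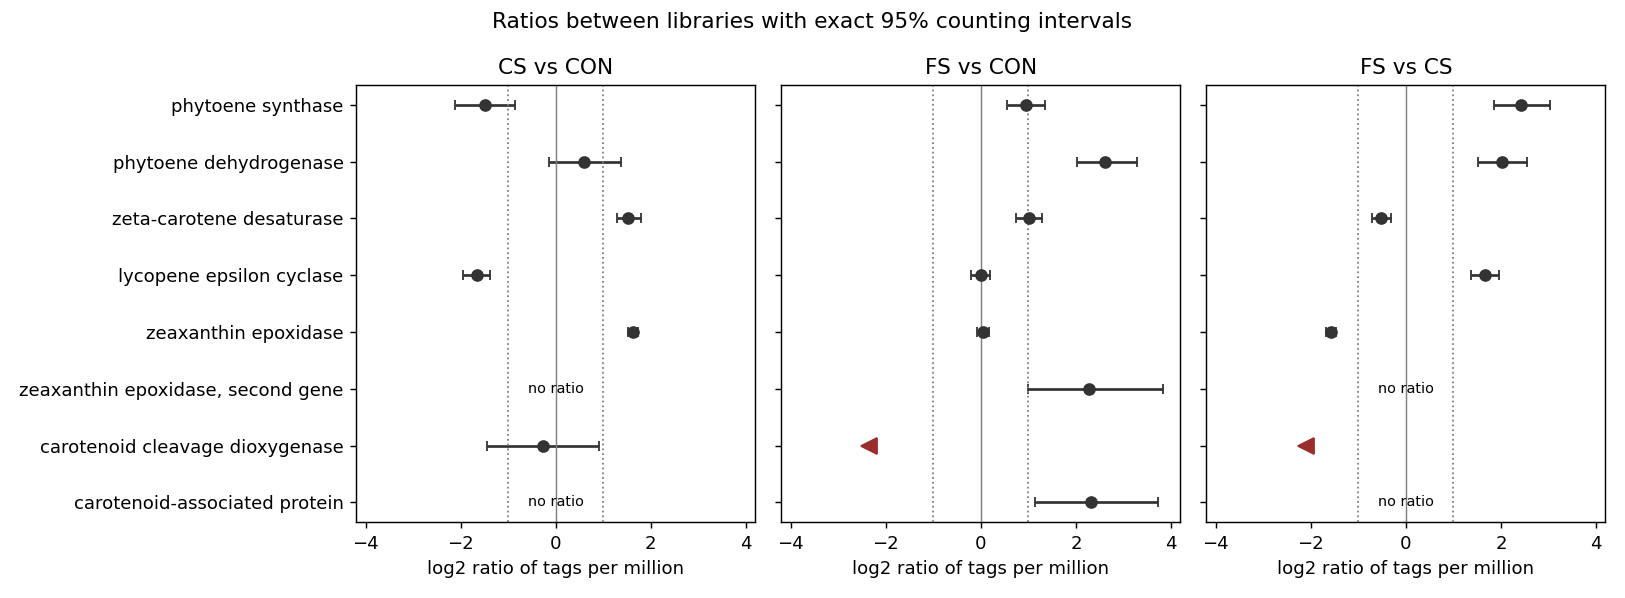
Log2 ratio of TPM (horizontal axis) for each gene in CS vs CON, FS vs CON and FS vs CS, with exact 95% counting intervals as bars and dotted lines at a log2 ratio of 1 in size. Lycopene epsilon cyclase and zeaxanthin epoxidase lie near 0 in FS vs CON and past the lines in opposite directions in the other comparisons; triangles are upper bounds of the ratio for the cleavage dioxygenase, which has 0 tags in FS.

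Zeaxanthin epoxidase (Unigene2750_All), which turns zeaxanthin into violaxanthin by way of antheraxanthin, was the most abundant of the genes in every library and was high in CS alone. It had 944 tags in FS, 2855 in CS and 891 in CON. The levels were 79.3 TPM (74.3 to 84.5) in FS, 238 (229 to 247) in CS and 77.0 (72.1 to 82.3) in CON. CS exceeded CON 3.09-fold, a log2 ratio of 1.63 (1.52 to 1.74), and the log2 ratio was -1.58 (-1.69 to -1.48) in FS vs CS. The FS vs CON log2 ratio was 0.04 (-0.09 to 0.17). Its GO terms in the deposited lists are carotenoid biosynthetic process, abscisic acid metabolic process, and responses to stress and to red or far red light.

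Nearly all tags of this gene are the site 1 tag, with 901 in FS, 2816 in CS and 880 in CON. The tags outside it, whose sequences and sites are not given, followed another order, with 43 in FS, 39 in CS and 11 in CON. Their log2 ratio was 1.92 (0.95 to 3.03) in FS vs CON, 1.77 (0.78 to 2.89) in CS vs CON and 0.15 (-0.51 to 0.82) in FS vs CS. They made up 4.56% of the gene's tags in FS, 1.37% in CS and 1.23% in CON.

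The second gene with a zeaxanthin epoxidase as best hit, Unigene28299_All, was far less abundant, with 30 tags in FS and 6 in CON. This is 2.52 (1.70 to 3.60) and 0.519 (0.190 to 1.13) TPM, a log2 ratio of 2.28 (0.99 to 3.84) in FS vs CON. No tag of it is in the tag tables, and whether the 2 genes are parts of 1 transcript or separate copies cannot be told apart here, since their sequences were not analysed. The intervals of their FS vs CON ratios (0.99 to 3.84 and -0.09 to 0.17) do not overlap. Unigene28299_All has a ratio only because the FS vs CON list holds it, and Unigene2750_All is not in that list. The listing alone puts the 2 ratios on different sides of the fold, so their contrast is not a separate result.

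The carotenoid cleavage dioxygenase Unigene5320_All, whose best hit is carotenoid cleavage dioxygenase 1 of Medicago truncatula, an enzyme that cuts carotenoids to volatile apocarotenoids, had no tag in FS, the only count of 0 among those the lists give for the 8 genes. It had 0 tags in FS, 13 in CS and 15 in CON. With FS at the limit of 3 tags and the other counts taken as exact, FS was at least 5.15-fold lower than CON and at least 4.30-fold lower than CS. With the counting error of both libraries, the log2 ratio lay at or below -1.88 in FS vs CON and -1.60 in FS vs CS. CS and CON had 1.08 (0.576 to 1.85) and 1.30 (0.726 to 2.14) TPM, a log2 ratio of -0.26 (-1.45 to 0.91). The authors had dropped tags with fewer than 2 copies, so a 0 can also stand for a single copy of a tag. The chromoplast-specific carotenoid-associated protein (Unigene36433_All), of the family that coats lipid bodies in plastids and holds carotenoids there, had 36 tags in FS and 7 in CON, all from its site 1 tag. The log2 ratio was 2.32 (1.13 to 3.73), from 3.02 (2.12 to 4.19) TPM in FS and 0.605 (0.243 to 1.25) in CON.

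Summed over the 6 genes with counts in all 3 libraries, there were 175 TPM in FS, 300 in CS and 140 in CON. Zeaxanthin epoxidase alone made up 45.4% of these tags in FS, 79.1% in CS and 55.1% in CON. Without it the sum was 95.3 in FS, 62.7 in CS and 62.9 in CON. The excess of CS over CON in the sum was thus that of a single gene, and the other 5 genes gave nearly the same sum in CS and CON although 3 of them passed a log2 ratio of 1 in size there.

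**Figure D4:**
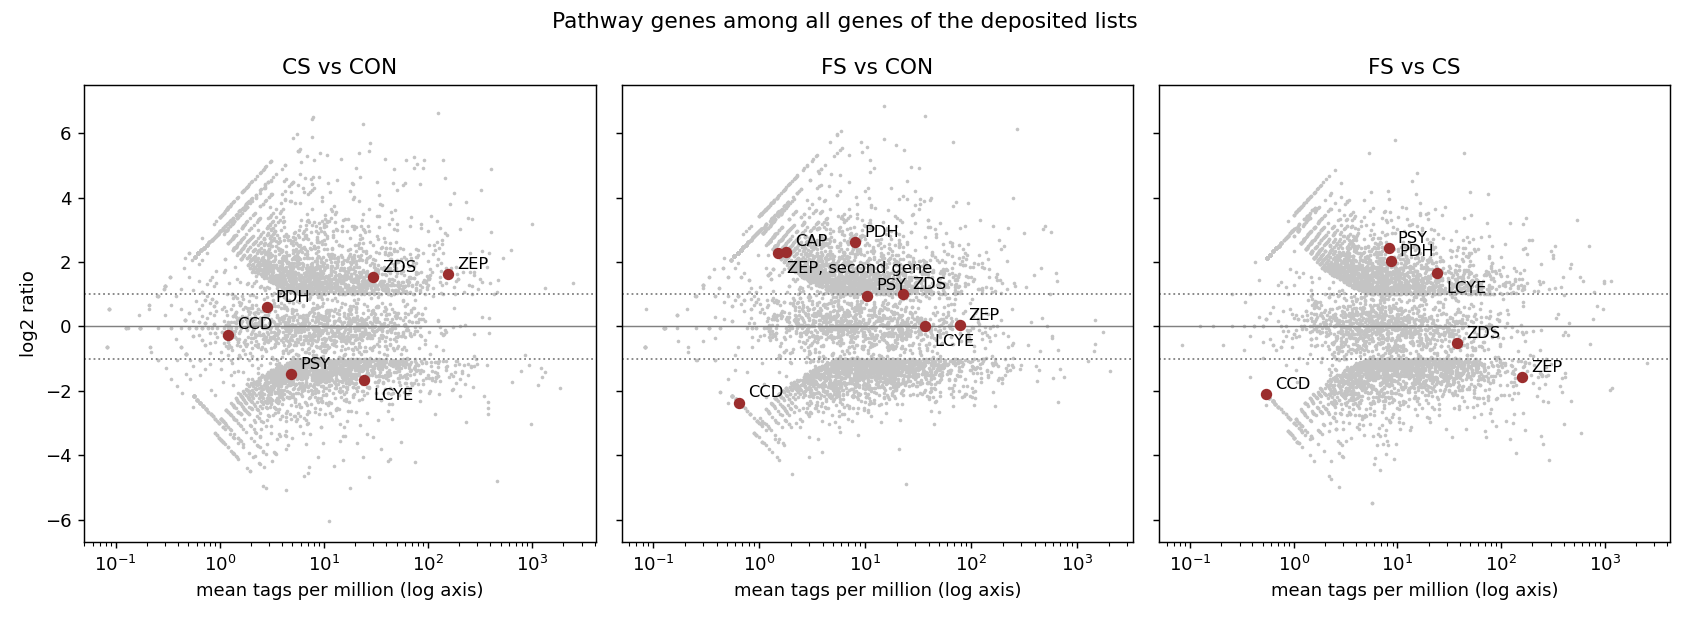
Log2 ratio (vertical axis) against the mean TPM of both libraries (horizontal log axis) for all genes with counts in both libraries (grey) and the pathway genes (red), with dotted lines at a log2 ratio of 1 in size. PSY is phytoene synthase, PDH phytoene dehydrogenase, ZDS zeta-carotene desaturase, LCYE lycopene epsilon cyclase, ZEP zeaxanthin epoxidase, CCD carotenoid cleavage dioxygenase and CAP carotenoid-associated protein; the ratio of a gene with a count of 0 is drawn at the limit of 3 tags, and the pathway genes lie among the other listed genes, the cleavage dioxygenase at the edge of low abundance.

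The other genes of the pathway were searched with 54 keywords in 5 classes, from the supply of plastid isoprenoids to abscisic acid. They found 9 listed genes, the 8 described above and 1 more. It is Unigene28642_All, with 1-D-deoxyxylulose 5-phosphate synthase as best hit (E-value 3.05e-29), the enzyme that opens the plastid isoprenoid route. It had 69 tags in FS, 254 in CS and 117 in CON, or 5.79, 21.1 and 10.1 TPM. Its log2 ratio was 1.06 (0.74 to 1.39) in CS vs CON, -0.80 (-1.25 to -0.36) in FS vs CON and -1.87 (-2.27 to -1.48) in FS vs CS, so CS was highest, as for zeaxanthin epoxidase and zeta-carotene desaturase. With it, 3 of 7 pathway genes were higher and 2 lower in CS vs CON, 4 of 9 higher and 1 lower in FS vs CON, and 3 of 7 higher and 3 lower in FS vs CS, with median log2 ratios of 0.60, 0.95 and -0.52. Over all genes with counts, 77.6%, 78.8% and 77.9% passed in the same order of comparisons, with medians of 0.08, 0.35 and 0.21. The second zeaxanthin epoxidase gene and the carotenoid-associated protein again enter FS vs CON only by passing it. No listed gene carried a best hit named for violaxanthin de-epoxidase, carotene hydroxylase, 9-cis-epoxycarotenoid dioxygenase or abscisic aldehyde oxidase. Only genes past the authors' threshold are listed, so this does not show that such genes were unchanged or absent from the leaf.

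Genes with the most similar pattern were looked for among 480 genes with a named best hit and at least 30 tags in each library, by the distance between their pairs of log2 ratios (CS vs CON and FS vs CON). These pairs rest on 3 libraries, and the distance is a description. The counting intervals of the members' own ratios are wider than the distances below, so which gene is nearest is not resolved. Nearest to zeaxanthin epoxidase was Unigene30597_All, a 1-aminocyclopropane-1-carboxylate oxidase by its best hit, with 38 tags in FS, 117 in CS and 36 in CON (distance 0.021). Nearest to lycopene epsilon cyclase was Unigene115949_All, a phosphoglycerate kinase, with 1782, 607 and 1788 tags in the same order (distance 0.067), followed by Unigene14090_All, an early light induced protein, with 655, 205 and 658 tags (0.087). Nearest to phytoene synthase was Unigene17262_All, an auxin-regulated protein, with 235, 43 and 114 tags (0.054). Nearest to phytoene dehydrogenase was Unigene43614_All, a COL domain transcription factor, with 511, 123 and 80 tags (0.038). Nearest to zeta-carotene desaturase was Unigene74257_All, a glutamate-cysteine ligase, with 915, 1397 and 438 tags (0.089). For the cleavage dioxygenase no nearest gene is given, because its count of 0 in FS leaves its FS vs CON ratio a bound. Next in distance were Unigene43283_All, an E3 ubiquitin ligase (0.040 from zeaxanthin epoxidase), Unigene22637_All, a nuclear pore constituent (0.108 from phytoene synthase), and Unigene38993_All, a syringolide-induced protein (0.109 from zeta-carotene desaturase). Unigene28447_All, a protein kinase, lay 0.330 from phytoene dehydrogenase.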

How the data were processed

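DeepSAGE tags were counted in 1 leaf library each of FS, CS and CON. The authors trimmed reads to clean tags of 21 bases, left out those seen in fewer than 2 copies, and allowed 1 mismatch in mapping. The submitters' processing notes name Bowtie 0.12.3, without its settings. The deposited counts give the clean tags of each gene, leaving out those that match several genes, and of each distinct tag. TPM as deposited scales them to 1000000 clean tags of the library, and writes 0.01 for 0. The deposited log2 ratios, P-values and FDR are the authors' own comparisons and were not used, and a gene or tag is listed only where it passed the authors' threshold.

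From the counts, TPM, log2 ratios and exact intervals were computed, with library totals implied by counts and TPM. A count of 0 was set to 3 tags in ratios. With 1 library per condition no count model was fitted and no p-value is given, and past the fold means a log2 ratio of 1 or more in either direction. A count that a gene's own comparison does not list was taken from the other lists. The intervals were also run on simulated counts with counting error alone. That run holds no PCR copies, copy filter or plant differences, so it does not check the intervals for these libraries. The members, keywords and pattern rule were chosen with earlier results of these data known. The rule named all 8 members, the other keyword genes reaching 30 tags in their higher library, and the 2 nearest genes by pattern, not given for a gene with a count of 0. Python 3.11.15, numpy 2.4.6, scipy 1.17.1, matplotlib 3.10.9, R 4.3.3 and edgeR 4.0.16 (TMM factors only) were used. Alternatives were other scalings, a pseudocount of 1, sums of listed tags, a log2 ratio of 1.5, a minimum of 30 tags and an E-value limit.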

Additional observations from a re-analysis of the deposited data

How the results depend on the processing

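No paired analysis was possible because there was 1 library per condition, and no library could be left out. The 98 alternative values were log2 ratios and counts of genes past the fold. Among the ratios, 0 past the fold changed sign and 1 call was lost. That was zeta-carotene desaturase in FS vs CON (0.97 and 0.69 under both other scalings). Of the alternative ratios, 8 lay outside the main counting interval and 69 inside. With TMM factors, zeaxanthin epoxidase in CS vs CON went from 1.63 to 1.34, and lycopene epsilon cyclase from -1.66 to -1.95. TMM factors shifted all log2 ratios by -0.29 in CS vs CON, -0.33 in FS vs CON and -0.04 in FS vs CS, and the summed genes by -0.18, -0.04 and 0.13. TMM put lycopene epsilon cyclase at -0.33 and zeaxanthin epoxidase at -0.29 in FS vs CON. These scalings use called genes alone, so they lack the mostly unchanged genes they assume. Keeping best hits down to an E-value limit of 1e-20 left 2 members past the fold in CS vs CON (4 before), 3 in FS vs CON (5 before) and 3 in FS vs CS (5 before), and 3 pathway list genes in CS vs CON and 3 in FS vs CON (5 before in each). Fewer genes pass the E-value limit by construction, since lycopene epsilon cyclase, zeta-carotene desaturase and the cleavage dioxygenase lie above it. A log2 ratio of 1.5 left 3 pathway list genes in CS vs CON. An interval wholly past a log2 ratio of 1, chosen after the data were seen, left 3 members in FS vs CON. The other 14 counts were within 1.5 times. Depth limits the genes with few tags, and the interval of Unigene28299_All spans 0.99 to 3.84.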

Other observations

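GO process terms gave a second list, searched by the name of the term instead of that of the best hit. The paper assigned GO terms with BLAST2GO, so the terms are not independent of the BLAST hits. Phytoene synthase and lycopene epsilon cyclase carry a process term given without its name, and neither was found by this search. This list was chosen after the data were seen. A term for carotenoid or xanthophyll metabolism or for the metabolism or biosynthesis of abscisic acid was carried by 7 listed genes besides zeaxanthin epoxidase. Of those with counts in both libraries, 4 of 5 were higher and 1 lower in CS vs CON, 3 of 4 were higher in FS vs CON, and 3 of 6 were higher and 1 lower in FS vs CS. Over all genes with counts, 77.6%, 78.8% and 77.9% passed the same fold in either direction in these comparisons. The shares higher were 41.2%, 44.6% and 43.1%. Unigene11503_All has counts in CS and CON only, and Unigene32587_All and Unigene466_All in FS and CS only. They could enter these comparisons only by passing them, so the counts cannot be read as a trend. Unigene47114_All, with a chloroplast tocopherol cyclase as best hit, an enzyme of vitamin E synthesis, had 46 tags in FS, 15 in CS and 3 in CON, a log2 ratio of 3.90 (2.26 to 6.23) in FS vs CON and 1.63 (0.76 to 2.58) in FS vs CS. Unigene19397_All, annotated with abscisic acid metabolism and with no named function in its best hit, had 143 tags in FS, 87 in CS and 17 in CON, a log2 ratio of 3.03 (2.30 to 3.85) in FS vs CON and 2.30 (1.54 to 3.14) in CS vs CON.

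Among the other genes annotated with abscisic acid metabolism, Unigene24231_All, with a predicted protein as best hit, had 17 tags in FS, 15 in CS and 0 in CON. With CON at the limit of 3 tags and the other counts taken as exact, FS was at least 5.50-fold higher than CON. CS was at least 4.82-fold higher than CON in the same way. With counting error in both libraries the log2 ratio was 2.00 or more in FS vs CON and 1.79 or more in CS vs CON. The cytochrome P450 gene Unigene11503_All had 21 tags in CS and 0 in CON, at least 6.74-fold higher in CS in the same way, and a log2 ratio of 2.33 or more with counting error. Unigene32587_All, with an unnamed product of Vitis vinifera as best hit, had 78 tags in FS and 201 in CS, a log2 ratio of -1.35 (-1.75 to -0.97). Unigene43155_All carried the term for abscisic acid biosynthesis although its best hit is a cellulose synthase. It had 128 tags in FS, 56 in CS and 145 in CON, a log2 ratio of -1.43 (-1.90 to -0.97) in CS vs CON. Unigene466_All, with the term for xanthophyll metabolism and a hypothetical protein as best hit, had 44 tags in FS and 11 in CS, a log2 ratio of 2.01 (1.04 to 3.11). FS, CS and CON were single libraries, so none of these differences has a replicate check.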
